A study of Mus musculus with 40 samples.

Results

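The cytosolic ribosomal protein genes encode the protein components of the ribosome that translates nuclear messages. They were taken by symbol: every row of the expression table named Rpl or Rps with a number, with the suffixes a, l, x or l1 allowed, plus Rplp0, Rplp1, Rplp2, Rpsa and Fau, and without pseudogene rows, with the row of highest mean kept for a repeated symbol. The rule found 83 genes among 23812 rows, 51 of the large and 32 of the small subunit. RNA sequencing was available for 40 mouse libraries in 10 groups of 4. Ear skin and mast cells sorted from skin came from mice that carry Cre at Mrgprd, the receptor gene of a class of nonpeptidergic sensory neurons of the skin (allele Mrgprdtm1.1(cre)And on B6.129S1(Cg), here Cre). They were compared with the cross of that strain to mice with Gt(ROSA)26Sortm1(HBEGF)Awai on C57BL/6, in which Cre-expressing cells carry the diphtheria toxin receptor (here DTR), so that toxin ablates them. Cre is thus shared by both arms. The protocol gives diphtheria toxin for 3 to 4 weeks to both genotypes, whereas the treatment labels name intraperitoneal toxin for DTR animals alone. Acetone and olive oil stand on the labels of both. Ear skin of C57BL/6J mice received 50 mM β-alanine, an agonist of MrgprD, or PBS on 2 days. Mast cells grown from the peritoneum of C57BL/6J mice were held for 6 h in buffer without or with 4 mM glutamate, or for 48 h with vehicle or 50 uM NS102, a glutamate receptor antagonist. No source states that replicates came from separate animals or cultures, so the p-values measure the spread between these libraries, which may be technical.

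A ribosome has a large and a small subunit, and each is built from ribosomal RNA and 1 copy of most of its proteins, with the acidic stalk proteins as an exception. Messages of these genes typically begin with a C followed by a run of pyrimidines, the 5′ terminal oligopyrimidine (TOP) tract, through which mTOR and the RNA-binding protein LARP1 control their translation. Their promoters are short, often lack a TATA box and often hold sites for GABP, an ETS-family factor, and for YY1. Several members have paralogues of restricted expression: Rpl3l is a gene of striated muscle, and Rpl10l and Rpl39l are known from the male germ line.

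The start sites are shown because a TOP tract is the feature the family is best known for. The windows were picked from preset members and from members that departed from the rest in either direction, so they are no sample of the family. Of 83 members, 63 had a promoter entry from RefSeq (GRCm38.p6, 250 bases before to 50 after the annotated start). A run of at least 5 pyrimidines that begins with C and covers or lies within 5 bases of the start was found in 23 of the 63, or 36.5%, against 21.4% of 27025 genes. In the windows below, which run from 15 bases before to 15 from the start onward and are written 5′ to 3′, capitals mark that run, and a window without capitals has no such run.
Rps6, chr4:86857353-86857382, minus strand: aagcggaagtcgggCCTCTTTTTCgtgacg
Fau, chr19:6057932-6057961, plus strand: tgcgcgcccccaCTTCTTCCTCTTTCTTga
Rps27, chr3:90213634-90213663, minus strand: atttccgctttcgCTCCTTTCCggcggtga
Rps18, chr17:33955651-33955680, minus strand: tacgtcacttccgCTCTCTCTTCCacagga
Rps23, chr13:90923107-90923136, plus strand: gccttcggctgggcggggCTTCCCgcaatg
Rpl22l1, chr3:28805493-28805522, plus strand: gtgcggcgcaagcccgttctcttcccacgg
Rpl26, chr11:68901551-68901580, plus strand: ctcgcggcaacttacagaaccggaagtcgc
Rpl7l1, chr17:46782642-46782671, minus strand: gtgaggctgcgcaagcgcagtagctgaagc
The first 5 genes had the run, and the last 3 did not under this rule. Rps23, Fau and Rps18 departed from the other members in a comparison below, as did the last 3. Rps12 and Rpl11, which fell in sorted cells and under NS102, had no such run either. Most members fell in both comparisons, so these picked windows cannot tell whether run and change are linked. The Rpl22l1 window does hold a pyrimidine run at the start, which begins with T. Annotated starts can lie some bases from the start used in a cell, so no match says only that these letters are not there. Searched on both strands of the whole 300 bases, CCGGAAG, the core of an ETS site, was present in 25 of the 63 members (39.7%) and in 9.93% of all genes. AAGATGG, a part of a YY1 site, was present in 11 members (17.5%) and in 7.28% of all genes, and TATAAA in 7 members (11.1%) and in 15.7%. The members with and without the pyrimidine run had similar median log2 changes. They were -1.66 (22 members) and -1.59 (38 members) in sorted mast cells, -1.13 and -1.12 under NS102, and 0.24 and 0.23 under glutamate.

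Levels are taken to be in FPKM, fragments scaled to transcript length and to the library's fragment total. The deposited table does not name its unit, which was inferred from the submitters' processing notes and from the values. In skin the members made up 17.7% to 21.6% of the summed FPKM of a library, and in vehicle-treated cultured mast cells 11.4% to 13.5%. The share was 8.02% ± 1.01 (SD, n = 4) in mast cells sorted from Cre mice. The members' median level was 1116 ± 57.3 FPKM in Cre skin, 126 ± 26.3 in Cre sorted cells and 409 ± 19.5 in cultured cells after 6 h of vehicle. The highest members were Rplp1 in Cre skin (3076 ± 176 FPKM) and Rpl41, which encodes the shortest ribosomal protein, in cultured cells after 6 h of vehicle (3045 ± 200). Rpl10l was listed at 0 in every skin and cultured library and reached at most 0.12 FPKM in sorted cells. Total FPKM ranged from 427797 to 508485 in skin, from 355726 to 432984 in culture and from 117574 to 197003 in sorted cells, where DTR replicates 3 and 4 (117574 and 126017) stood below the other 6 libraries. Defining markers were present in the labelled material. Summed keratinocyte markers were 11802 to 14450 FPKM in skin, and summed mast cell markers at least 9250 in sorted and 65403 in cultured libraries. Read depth is unknown, because the table gives no counts. Many members have near-identical processed pseudogenes, and how reads shared with them were counted is not given in the sources used here. Values such as the 6.15 to 9.19 FPKM of Rps27 in Cre skin, and the low levels of Rpl26 in sorted cells given below, are therefore uncertain.

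**Figure D1:**
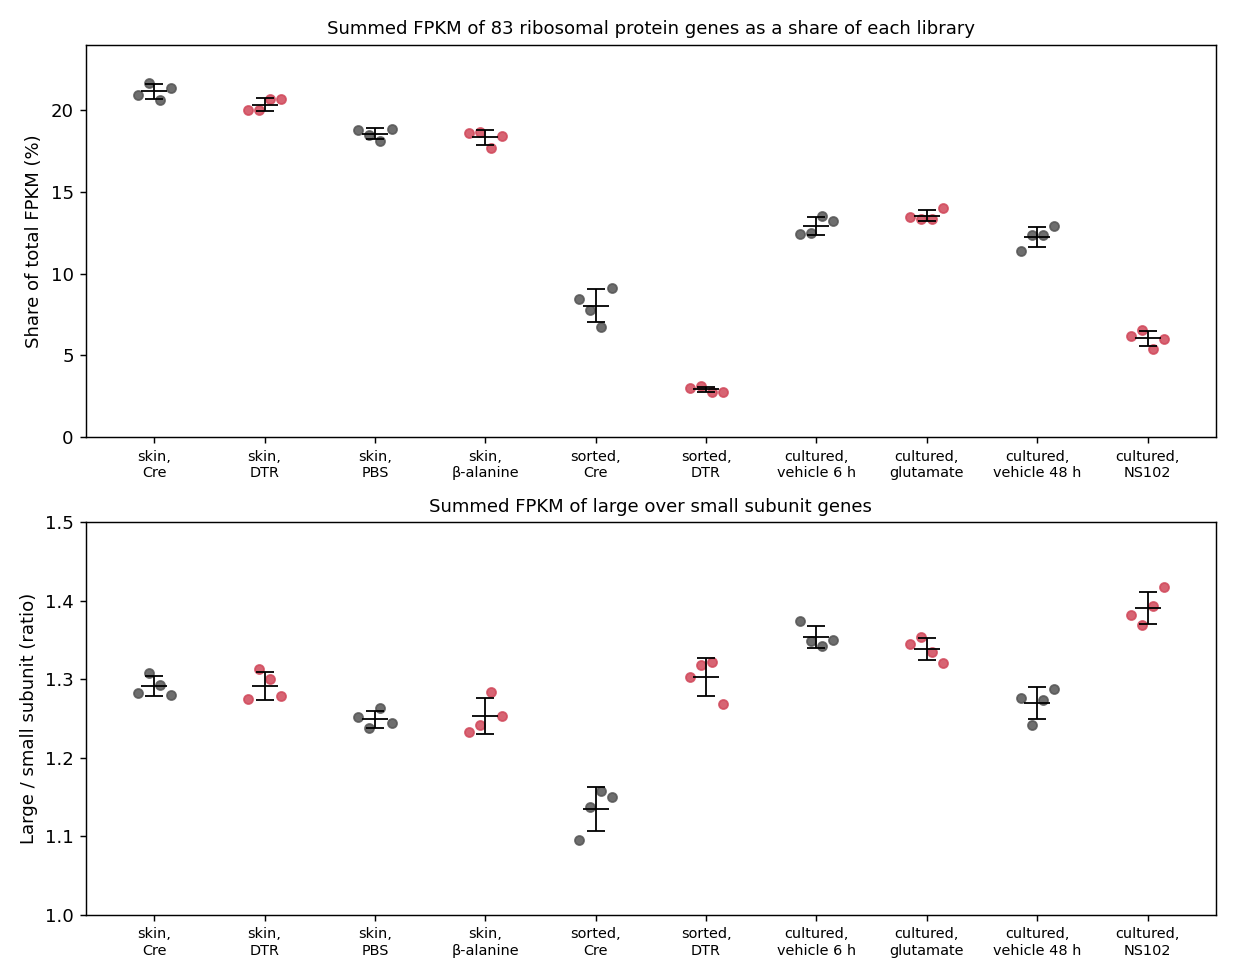
Upper panel: summed FPKM of the 83 members as a percentage of each library's total FPKM in the 10 groups. Lower panel: summed FPKM of large over small subunit members, on an axis that starts at 1. Points are libraries (grey control, red treated), and bars give the mean and SD of 4. The share was lower in DTR than in Cre sorted cells and lower with NS102 than with vehicle, and in both cases the ratio was higher in the treated libraries.

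Ablation and the members in ear skin. Differences were small and nearly all in one direction: 80 of 82 members tested had a negative log2 change, with a median of -0.12 and an interquartile range of 0.085, against a median of 0.01 and a range of 0.183 over all 12607 genes tested. All tests are limma on log2(FPKM + 1) with Benjamini-Hochberg adjustment over all genes tested, and fold changes on this scale understate the change of low genes. At an adjusted p of 0.05, 8 members were lower, 9.76% of those tested, where 6.25% of all genes were called lower. The share was below that of the 502 other genes with a mean of at least 100 FPKM, of which 20.3% were lower with a median of -0.08. None was higher (7.38% of all genes). At an unadjusted p under 0.05 none was higher either and 36 members (43.9%) were lower, against 17.7% and 14.4% of all genes. In 24 members all DTR libraries lay below all Cre libraries, which 9.6% of all genes did. Rplp0, the scaffold of the acidic stalk that recruits translation factors, stood at 2295, 2397, 2293 and 2602 FPKM in Cre and at 1979, 1919, 2184 and 2114 in DTR skin. The groups did not overlap, and the change of -0.23 (SE 0.06) had an adjusted p of 0.0388. Rpl41 fell from 2922 ± 197 to 2528 ± 90.7 FPKM (adjusted p = 0.0458, n = 4, limma), and Rps29 and Rps25, 2 small subunit proteins, fell by 0.18 and 0.17 on the log2 scale. Rpsa, a small subunit protein that also serves as a laminin receptor, fell by 0.17.

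These calls rested on single libraries. No member was called lower without Cre replicate 2, DTR replicate 2 or DTR replicate 4. There was 1 without Cre replicate 4, DTR replicate 1 or DTR replicate 3, while 4 were called without Cre replicate 1 and 17 without Cre replicate 3. After correction for transcript length 2 were called lower, with a median of -0.02. Among all genes the split was 931 higher and 788 lower, and 724 and 1029 after median centring of the libraries. Fewer cells of a type and less RNA per cell cannot be told apart in bulk skin. Summed adipocyte markers (4 of 4 in the table, none at 0) were 419 to 515 FPKM in Cre and 183 to 215 in DTR skin. Summed mast cell markers (8 of 8) were 66.2 to 85.9 and 195 to 238. Their part in the members' change was not tested.

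The 2 members that departed from the others in skin were Rpl3l and Rplp0. This was tested after each library's median member value had been subtracted, so that a change is relative to the other members. Both were then lower (adjusted p = 0.0378 and 0.0479, limma). These 2 of 82 members were a smaller share than the 3.2% of all genes called lower in the same fit. No member was higher (15.7% of all genes). Rpl3l was at 8.31, 11.2, 12.3 and 20.4 FPKM in Cre and at 7.48, 8.39, 4.86 and 6.84 in DTR skin. The groups overlapped, since 1 Cre library lay just under the highest DTR library. Its change was -0.79 (SE 0.22), the largest fall of any member in skin. Summed skeletal muscle markers (4 of 4, none at 0) moved with it, from 494 to 1128 FPKM in Cre to 242 to 327 in DTR skin, and their part in it was not tested. Rps27, which binds zinc on the small subunit, fell from 7.04 ± 1.44 to 4.91 ± 0.757 FPKM (adjusted p = 0.04, n = 4, limma) but did not depart from the other members (adjusted p = 0.0598).

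β-alanine on ear skin moved no member past the test in either direction. By limma, 25 genes of 12709 (0.197%) were lower and 2 (0.0157%) higher. At an unadjusted p under 0.05, 4 members were lower and 0 higher, where 8.66% of all genes were lower. In 5 members all β-alanine libraries lay below all PBS libraries (5.56% of all genes), and in 0 above (0.866%). No member departed from the others in either direction (0.157% of all genes lower, 0.0236% higher). The members' median log2 change of -0.05 was that of all genes, -0.04, and their interquartile range was 0.091 against 0.144. Rpl26, a large subunit protein near the tunnel exit that is also known to bind p53 messenger RNA, lay farthest below, at 41.6, 44.5, 69.8 and 43.9 FPKM with PBS and 39.2, 40.9, 24.5 and 34.5 with β-alanine. The groups did not overlap, but the change of -0.50 (SE 0.19) had an adjusted p of 0.433 by limma. Rps26, of the small subunit's messenger exit channel, was at 2581 ± 130 and 2154 ± 221 FPKM (adjusted p = 0.372, n = 4, limma). Rpl3l lay farthest above, at 18.4 ± 5.02 and 24.4 ± 7.8 FPKM (adjusted p = 0.641, n = 4, limma). Summed mast cell markers were 208 to 255 FPKM with PBS and 4.08 to 7.69 with β-alanine.

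In mast cells sorted from skin most members fell after ablation. Of 80 tested, 74 (92.5%) were lower and 0 higher, where 16.9% of 8871 genes were called lower and 18.9% higher. At an unadjusted p under 0.05, 75 were lower (19.9% of all genes) and 1 higher (25.1%). All 80 had at least 1 FPKM in all 8 libraries. The median log2 change was -1.66, a 3.16-fold lower level, against a median of 0.13 over all genes tested and -0.42 over the 215 other genes with a mean of at least 100 FPKM. The members' interquartile range of 0.599 was the widest of the 5 comparisons, and 58 of 80 (72.5%) lay within 0.5 of their median. In 72 members all DTR libraries lay below all Cre libraries (16.2% of all genes). The summed share of the members was 2.91% ± 0.17 (SD, n = 4) in DTR against 8.02% in Cre libraries.

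Rps23, a protein of the decoding centre, was at 584, 555, 389 and 534 FPKM in Cre and 93.9, 104, 53.2 and 60.5 in DTR cells. Every DTR library was thus far below every Cre library, and the change was -2.75 (SE 0.25, adjusted p = 4.36e-08, limma). Fau, which makes Rps30 as a fusion with a ubiquitin-like protein, fell from 320 ± 67.1 to 58.5 ± 20.3 FPKM. Rps27 (mm9 chr3:90016588-90017570) had the lowest change, -2.95, but the widest spread (SE 0.66). It was at 75.3, 34.9, 83.3 and 174 FPKM in Cre and 32.6, 3.34, 1.08 and 36.7 in DTR cells, and the groups overlapped.

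Other members with known roles outside or beside the ribosome followed. Rps27a, a ubiquitin fusion, changed by -1.70 and Rps6, the substrate of S6 kinase, by -1.66. Rpl5 and Rpl11, which with 5S RNA bind Mdm2, changed by -1.47 and -1.88. The stalk genes Rplp0, Rplp1 and Rplp2 changed by -1.43, -1.40 and -1.45, and all 7 of these genes passed the test.

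The 6 members that did not pass in sorted cells were Rpl26, Rpl7l1, Rps27l, Rpl3, Rpl22l1 and Rpl30. Of these, 3 are paralogues of canonical members. Rpl7l1 (mm9 chr17:46910855-46919605), whose yeast relative acts in large subunit assembly, was at 9.54, 9.73, 7.48 and 9.11 FPKM in Cre and at 15.6, 17.1, 10.3 and 11.6 in DTR cells. All DTR libraries lay above all Cre libraries, while the change of 0.53 (SE 0.23) had an adjusted p of 0.0778. Its canonical relative Rpl7 went from 253, 224, 138 and 248 to 59.9, 63, 36.1 and 37.7 FPKM, a change of -2.12. Rpl26 (mm9 chr11:68715067-68718036) was at 2.81, 3.78, 2.16 and 7.08 FPKM and at 7.5, 7.61, 4.44 and 4.65 (0.57, SE 0.29, adjusted p = 0.131, limma), with overlap through the fourth Cre library. Rps27l, a p53 target, was at 108, 83.7, 69.4 and 150 FPKM and at 111, 106, 68.6 and 75.3. The groups overlapped. Rpl3, a protein near the peptidyl transferase centre, had 70.3 ± 12 and 54.1 ± 17 FPKM (adjusted p = 0.213, n = 4, limma).

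Relative to the members' median, 39 of the 80 departed in sorted cells, 19 above and 20 below. Of all genes 89.3% and 3.45% did so. Rpl26 stood 2.19 above the other members on the log2 scale, Rpl7l1 2.16, Rps27l 1.47 and Rpl3 1.21, each past the test (largest adjusted p = 1.61e-06, limma). The levels of Rpl26 were far under the members' median in both groups, so its place is less certain. Rps23 stood at -1.13 and Fau at -0.85. Without DTR replicates 3 and 4, 72 members were lower and 1 higher, with a median of -1.28, and the higher one was Rpl7l1 (0.80, adjusted p = 0.0107). Rpl7l1 was also called higher after median centring (adjusted p = 0.00219), as Rpl7l1 and Rpl26 were after quantile normalization (0.000694 and 0.0429) and length correction (0.0165 and 0.00387). Without Cre replicate 4, Rpl26 was called higher (adjusted p = 0.0056), and without DTR replicate 3, Rpl7l1 (0.0413).

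Markers of other cells moved with the sorted groups. Summed neutrophil markers (5 of 5 in the table) were 51.6 to 252 FPKM in Cre and 0.0497 to 0.264 in DTR cells. Those of T cells and innate lymphoid cells (4 of 6 in the table) were 243 to 389 and 4.7 to 8.71. Cd7 made up most of this sum in Cre cells (means of 306 and 0.0314). The T cell genes Cd3e (0.194 and 0.0315) and Cd3g (0.329 and 0.034) were low in both groups. Markers of macrophages and monocytes (9 of 10, with C1qa and C1qb under 1 FPKM throughout) summed to 47 to 56 and 6.97 to 17.5. Among them Cd68 rose (means of 2.7 and 5.0), while the others fell. Summed basophil markers (7 of 8 in the table) were 996 to 1460 and 519 to 772 FPKM. Mcpt8, a basophil protease, had means of 343 and 2.11, while Ms4a2 of the same list had 228 and 346. Eosinophil markers (3 of 4, with Prg2 and Epx under 1 FPKM throughout) summed to 5.88 to 14.4 and 0.0207 to 0.103. Summed mast cell markers (8 of 8, none below 1 FPKM) were 9250 to 13818 and 17653 to 28877. Fcer1a (means of 573 and 289) and Hdc (381 and 291) fell, while the other mast cell markers rose. The part of these in the members' change was not tested.

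**Figure D2:**
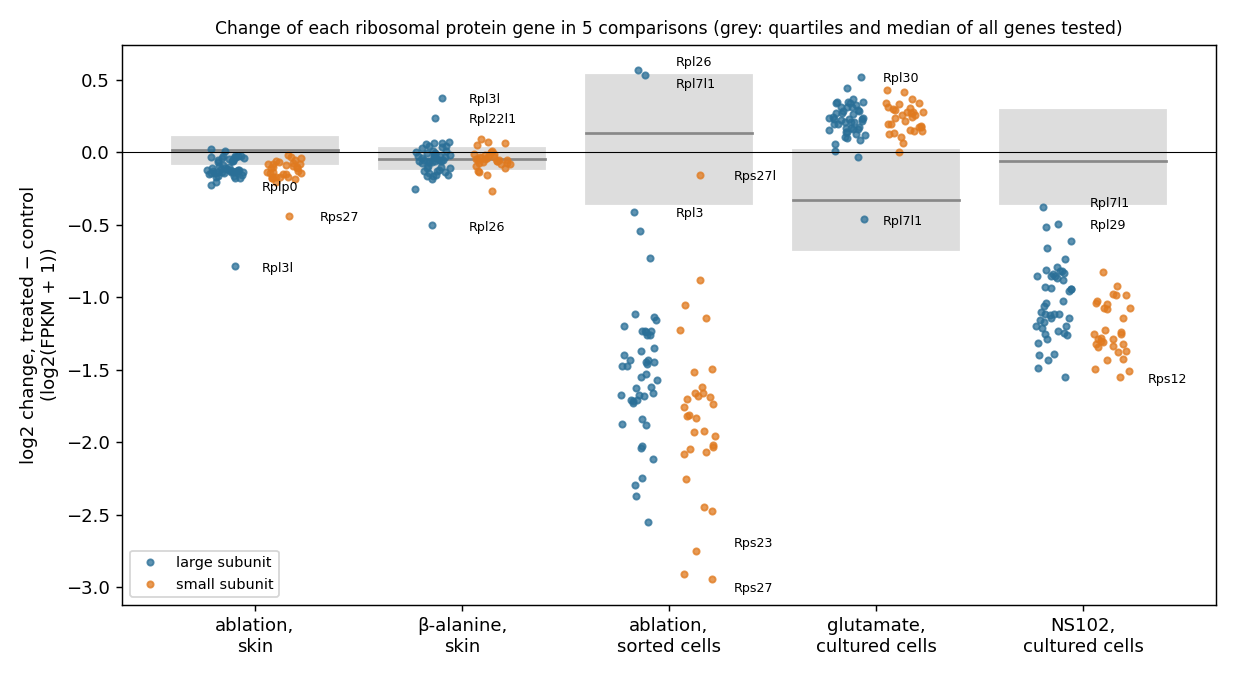
Each point is 1 member's log2 change (treated minus control, log2(FPKM + 1)) in 1 of 5 comparisons, blue for large and orange for small subunit. The grey box spans the quartiles of all genes tested and the grey line their median. All members sat below the box under NS102 and most did in sorted cells, where Rpl26 and Rpl7l1 lay above 0. Most sat above the box under glutamate, with Rpl7l1 inside it.

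Glutamate for 6 h raised most members in cultured mast cells. Of 80 tested, 69 (86.2%) were higher and 1, Rpl7l1, was lower, where 16.9% of 8297 genes were called higher and 62.4% lower. The members' median log2 change was 0.23, a 1.17-fold higher level, with an interquartile range of 0.139. All genes tested had a median of -0.33 and an interquartile range of 0.688, so the members stood 0.56 above the median gene. The 404 other genes with a mean of at least 100 FPKM had a median of 0.05, and 45% of them were higher. In 65 members all glutamate libraries lay above all vehicle libraries (15.2% of all genes), and in 1 all lay below (59.1%). The size of this rise depended on the scaling, as did the split of all genes, which was 1403 higher and 5177 lower here and 3112 and 3101 after quantile normalization. The median of all genes moved from -0.33 to 0.08 with median centring and to 0.00 with quantile normalization. Median centring gave 79 members higher with a median of 0.64, and quantile normalization gave 39 higher and 13 lower with a median of 0.09. The share of the members in total FPKM was 12.4% to 13.5% with vehicle and 13.3% to 14% with glutamate. Marker sums moved without overlap. Those of mast cells (8 of 8, none below 1 FPKM) were 67519 to 70163 FPKM with vehicle and 92134 to 94055 with glutamate. The mean of Kit fell from 397 to 191 and that of Mrgprb2 from 87.6 to 46.4, while the other mast cell markers rose. T cell and innate lymphoid markers (4 of 6 in the table) summed to 6.26 to 8.39 and 2.94 to 3.91, and macrophage and monocyte markers (9 of 10) to 37.5 to 45.1 and 17.3 to 31.7. Their part in the members' change was not tested.

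Rplp0 was at 602, 606, 667 and 643 FPKM with vehicle and at 840, 848, 862 and 878 with glutamate. The groups were well apart, and the change was 0.45 (SE 0.04, adjusted p = 1.01e-07, limma). Rps2, a protein of the messenger entry channel, went from 704 ± 33.3 to 949 ± 22.5 FPKM (0.43), and Rpl12, of the stalk base, from 338 ± 17.6 to 436 ± 9.16 (0.37). Rps20 of the small subunit head rose by the same 0.37. Rpl30 had the largest change, 0.52, from 29, 29.9, 30.5 and 32.3 FPKM to 40.6, 47.6, 49.7 and 39.5, with no overlap. Rps27 overlapped, at 330, 290, 467 and 337 FPKM against 379, 392, 579 and 556 (0.42, adjusted p = 0.0226, limma, and 0.142 after quantile normalization). Rpl7l1 went the other way, from 12.9, 13.3, 12.7 and 12.2 to 9.02, 8.84, 9.44 and 8.75 FPKM (-0.46, SE 0.05, adjusted p = 2.11e-06, limma). Its groups were fully apart. Against the median gene it was at -0.13, and after median centring it was not called lower (-0.05, adjusted p = 0.354, limma), nor after length correction (-0.10, adjusted p = 0.075).

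Relative to the members' median, 21 stood above and 17 below under glutamate (8.36% and 76.7% of all genes). Besides Rpl7l1, the farthest below were Rpl34 (-0.26), Rps26 (-0.22) and Rpl21 (-0.21), whose own levels did not pass the test. These calls depended on the scaling. Rpl21 (0.43) and Rpl34 (0.38) passed as higher after median centring, as 79 of the 80 members did, and Rpl21 (0.35) also after length correction. Rps26 passed as lower after quantile normalization (-0.15). Rps26 was at 952 ± 39.8 and 955 ± 55.7 FPKM (adjusted p = 0.94, n = 4, limma).

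NS102 for 48 h lowered all members tested on the scale of the deposited values. All 80 were lower, where 39.7% of 8373 genes were called lower and 30.8% higher, and 0 were higher, also at an unadjusted p under 0.05. All 80 had at least 1 FPKM in all 8 libraries. The median log2 change was -1.12, a 2.17-fold lower level, with an interquartile range of 0.355. All genes tested had a median of -0.06, and the 444 other genes with a mean of at least 100 FPKM had -0.32. In 79 members all NS102 libraries lay below all vehicle libraries (36.9% of all genes), with Rps27 as the exception. The summed share fell from 12.2% ± 0.628 to 6.03% ± 0.47 (SD, n = 4).

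Rps12, of the small subunit beak, was at 421, 488, 493 and 514 FPKM with vehicle and at 169, 174, 129 and 183 with NS102, and its change of -1.55 (SE 0.10, adjusted p = 9.42e-08, limma) was the largest. Rpl32 was at 1817, 1995, 2101 and 1951 FPKM and at 696, 758, 578 and 663 (-1.55). For both genes the groups were far apart. Rps18 and Rps7 of the small subunit and Rpl35a of the large changed by -1.51, -1.43 and -1.49. Rps19, the gene most often mutated in Diamond-Blackfan anaemia, fell from 919 ± 61.1 to 342 ± 38.8 FPKM (-1.43). Rpl5 and Rpl11 changed by -0.94 and -1.12 and Rps6 by -1.08, and the stalk genes Rplp0, Rplp1 and Rplp2 by -1.39, -1.20 and -1.21. The p53 target Rps27l was at 584, 631, 661 and 606 FPKM and at 327, 340, 292 and 252, so it fell with the others (-1.04).

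The 4 smallest falls under NS102 were in the large subunit. Rpl7l1 was at 26.6, 25.3, 25.2 and 23.7 FPKM with vehicle and at 19.6, 18.2, 19.1 and 19.9 with NS102. The groups did not overlap, and the change was -0.37 (SE 0.06, adjusted p = 6.8e-05, limma). Rpl29, of which the mouse null is small but viable, was at 240, 232, 244 and 263 FPKM and at 172, 177, 162 and 183 (-0.49). Rpl26 changed by -0.51 (0.04 after length correction) and Rpl4, a protein that lines the exit tunnel, by -0.61. Relative to the members' median, 26 members stood above and 18 below (96% and 0.848% of all genes). Rpl7l1 stood 0.77 above, Rpl29 0.65, Rpl26 0.63 and Rpl4 0.53.

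Members have short transcripts, with a median of 914 nt against 2564 nt over all genes of the table with a length, and log2 change rose with length over all genes under NS102 (Spearman rho 0.41, a description across genes, which are not independent). Corrected for this trend, 77 members were lower with a median of -0.70, and after quantile normalization 78 were, with a median of -0.76. Among the members alone, change and length were nearly unrelated before the length correction (rho 0.09) but related after it (rho -0.52). Length-corrected values of the members, above all of single ones, are therefore uncertain. Summed mast cell markers (8 of 8, none below 1 FPKM) were 65403 to 68051 FPKM with vehicle and 69545 to 82074 with NS102, and neutrophil and keratinocyte markers were under 1 FPKM in both groups. Cpa3 (means of 13113 and 11774) and Fcer1a (8266 and 5939) fell, while the other mast cell markers rose.

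The 2 large falls were compared member by member, in libraries that they do not share. Over 80 members the log2 changes in sorted cells and under NS102 had a Pearson r of 0.39, and 0.19 over the 76 members with at least 50 FPKM, a weak relation that is given as a description. Over 7687 genes tested in both, r was -0.038. Under NS102, 26 of the 80 members stood above the members' median and 18 below. Of the 19 members above the median in sorted cells, 8 were also above it under NS102 (42.1% of 19 and 30.8% of 26): Rpl10, Rpl21, Rpl22l1, Rpl26, Rpl30, Rpl4, Rpl7a and Rpl7l1, all of the large subunit. Of the 20 below it, 6 were also below it under NS102 (30% and 33.3%), among them Rps19, Rps23 and Rpl32. Fau was below in sorted cells and above under NS102. Between glutamate and NS102, 11 members stood below the median under the first and above it under the second (64.7% of 17 and 42.3% of 26). They include Rpl7l1, Rpl21, Rps26, Fau, Rpl10 and Rpl41. Rpl7a lies outside the naming rule and was named after its values were seen.

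**Figure D3:**
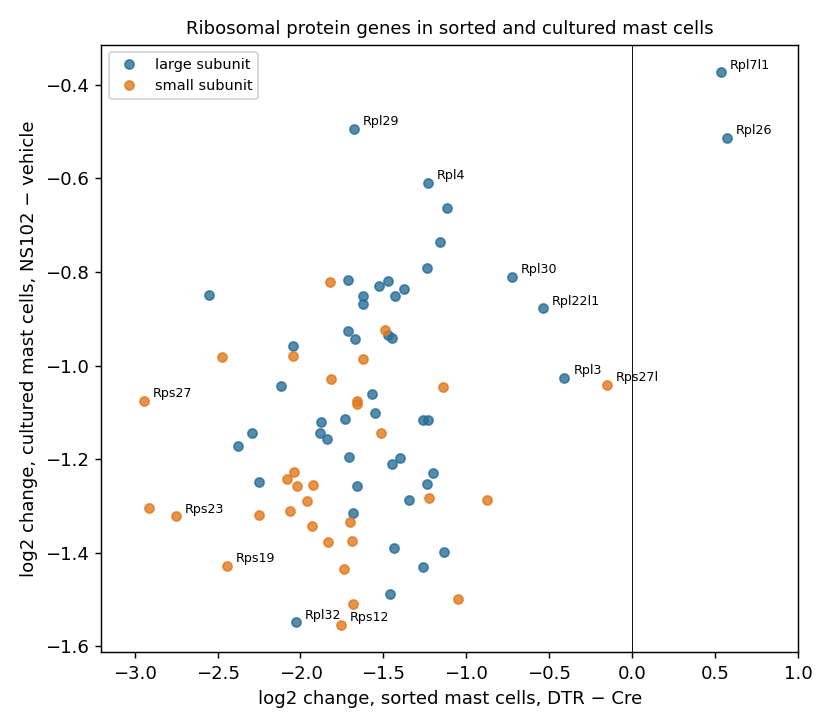
Log2 change of 80 members in sorted mast cells (DTR minus Cre, horizontal) and in cultured mast cells (NS102 minus vehicle, vertical), with large subunit members in blue and small subunit members in orange. Rpl7l1 and Rpl26 lie at the upper right, and small subunit members lie mostly toward the lower left.

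Small subunit members had the lower medians in both falls, a difference given without a test. In sorted cells the median log2 change was -1.82 over 32 small and -1.47 over 48 large subunit members, and under NS102 it was -1.27 and -1.05. Relative to all members, 13 small and 7 large subunit members stood below in sorted cells, and 5 small and 14 large above. Under NS102, 12 small and 6 large stood below, and 5 small and 21 large above. The ratio of summed large to small subunit FPKM was 1.09 to 1.16 in Cre and 1.27 to 1.32 in DTR sorted cells, and 1.24 to 1.29 with vehicle and 1.37 to 1.42 with NS102. The groups did not overlap in either comparison. In skin the medians were both -0.12 with ablation, and the ratio was 1.28 to 1.31 in Cre and 1.28 to 1.31 in DTR. Under glutamate the medians were 0.25 over small and 0.23 over large subunit members.

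Paralogues can replace or accompany the canonical protein, so their levels per length were set beside each other. In Cre skin, Rps27l made up 97.6% ± 0.506 (SD, n = 4) of the summed FPKM of Rps27 and Rps27l, and with vehicle for 6 h in culture 48.6% ± 4.92. The skin share rests on the low Rps27 values (6.15 to 9.19 FPKM in Cre skin). How reads shared with pseudogenes were counted is not given, so this share is uncertain. It was 45.4% to 70.6% in Cre and 67.3% to 98.4% in DTR sorted cells, which overlap. Rpl22l1 made up 57.3% ± 1.3 of its pair with Rpl22 in Cre skin, 33.9% ± 2.49 in PBS skin and 80.2% ± 1.43 with vehicle for 6 h. In sorted cells it was 63.6% to 74.1% in Cre and 75.4% to 85.6% in DTR, so the ranges lay side by side without overlap. The pair of Rpl7 and Rpl7l1 also differed without overlap. Rpl7l1 was 3.54% to 5.16% of the pair in Cre and 20.7% to 23.5% in DTR sorted cells. It went from 3.74% to 4.34% with vehicle for 48 h to 5.17% to 6.71% with NS102, and from 1.77% to 2.03% with vehicle for 6 h to 1.13% to 1.24% with glutamate. Rpl3l was 0.942% to 2.17% of its pair with Rpl3 in Cre skin and was listed at 0 in every cultured library. Rpl39l was at 3.1 ± 0.813 FPKM in Cre skin, under 0.6 FPKM in every cultured library, and at 0 in all Cre sorted libraries.

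**Figure D4:**
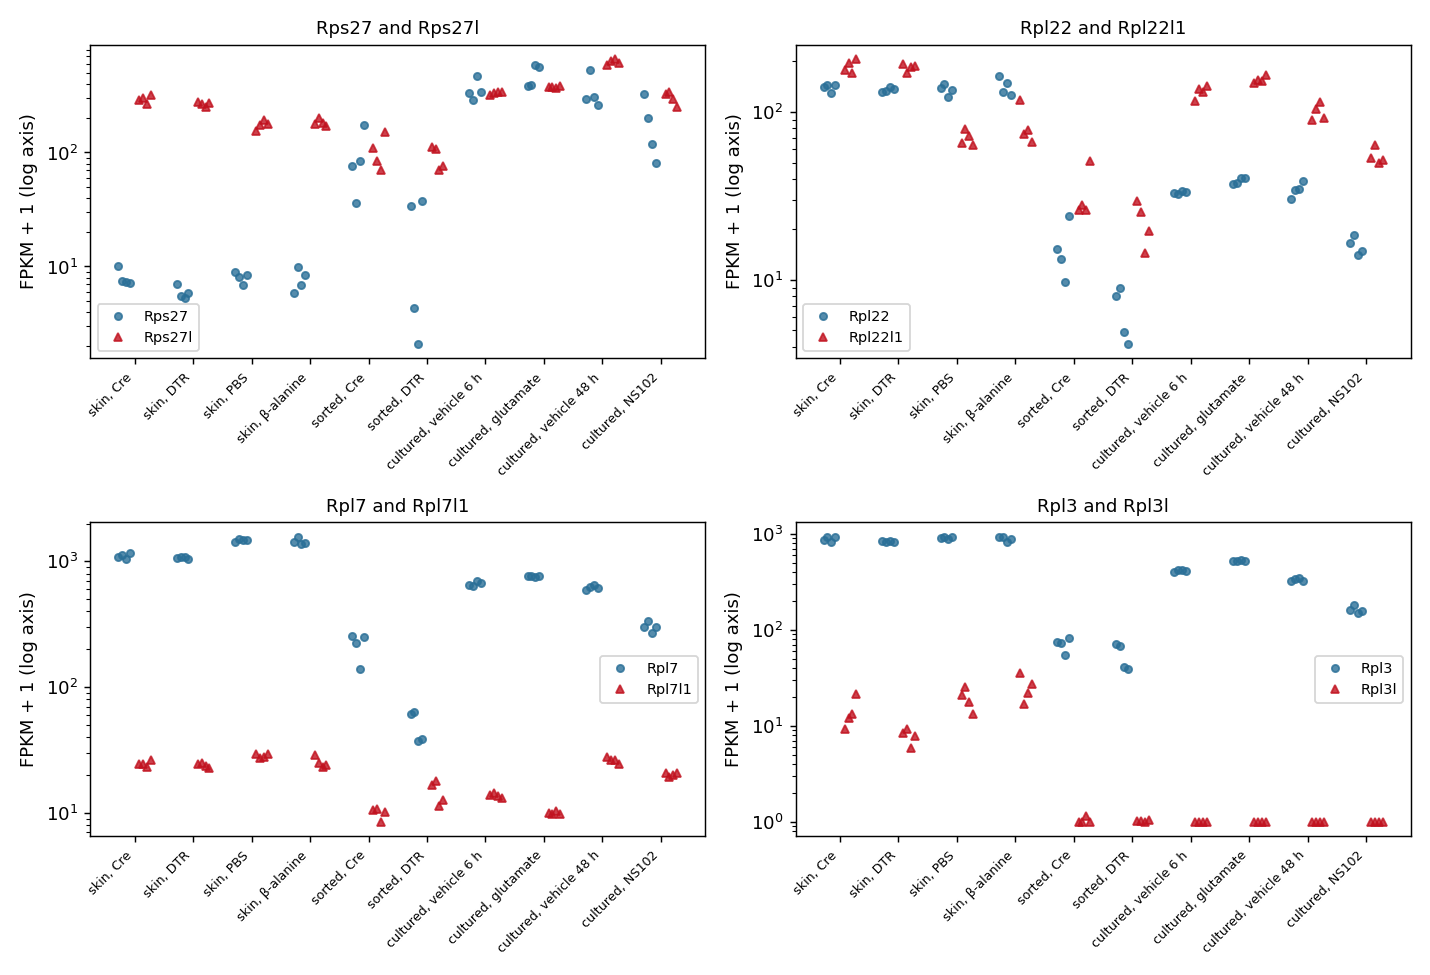
FPKM + 1 on a log axis for 4 canonical members (blue circles) and their paralogues (red triangles) in each of the 40 libraries, by group. Rpl7 falls between Cre and DTR sorted cells while Rpl7l1 does not. Rps27 is far below Rps27l in all 4 skin groups, where its low values are uncertain because the counting of reads shared with pseudogenes is unknown.

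Ablation was the one contrast made in both skin and sorted cells, so its effects could be compared directly. The interaction, the change in sorted cells minus that in skin, passed the limma test in 75 of 82 members: in 73 the sorted change was lower (13.3% of 13153 genes) and in 2 higher (14.4%). The median interaction was -1.51 over the members and 0.05 over all genes tested. The 2 were Rpl7l1 (0.56, SE 0.19, adjusted p = 0.0422) and Rpl3l (0.78). This fit took a single spread per gene over skin and sorted libraries, though the sorted libraries varied more. The SE for Rpl7l1 is therefore smaller than that of its change in sorted cells alone. That change did not pass (adjusted p = 0.0778, limma), so the interaction call for Rpl7l1 is uncertain. Rpl3l was at most 0.147 FPKM in the 8 sorted libraries and entered the test through skin alone, so its value only restates the fall in skin (-0.79) and is no difference in response. The 7 members without a call were Rpl22l1, Rpl26, Rpl3, Rpl30, Rpl39l, Rps27 and Rps27l. Rps27l changed by -0.15 in sorted cells and by -0.14 in skin (interaction -0.01, SE 0.28).

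Other genes of protein synthesis were counted from fixed lists. Of 30 translation factors and other TOP messages, 14 fell in sorted cells (46.7%, against 16.9% of all genes) and 3 rose (10%, against 18.9%). Their median log2 change was -0.61. Eif3h, Eif3f and Eif3k, subunits of initiation factor 3, changed by -1.33, -1.35 and -1.22. Under NS102, 23 of the 30 fell (76.7%, against 39.7% of all genes) and 5 rose (16.7%, against 30.8%), with a median of -0.58. Eef1b2, an exchange factor of elongation, was at -1.34. Under glutamate 19 rose (63.3%, against 16.9% of all genes) and 6 fell (20%, against 62.4%), and 27 and 2 did so after median centring. Eif4e, the cap-binding protein, rose from 7.28 ± 0.548 to 19.3 ± 0.558 FPKM (1.29), and Eef1g, of the elongation factor 1 complex, from 74.7 ± 2.6 to 134 ± 2.37. In skin after ablation 2 rose (6.67%, near the 7.38% of all genes) and 1 fell (3.33%, against 6.25%).

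Genes of ribosome assembly did not follow the members in sorted cells. Of 38 tested by limma, 4 rose and 0 fell, with a median of 0.23, and at an unadjusted p under 0.05 the counts were 7 and 0. The 10.5% that rose lay below the 18.9% of all genes, and the 0 that fell below 16.9%. The 4 were Rrn3, a factor of RNA polymerase I (1.23), Bop1 (0.72) and Pes1 (0.71), partners in large subunit assembly, and Mybbp1a (0.74). Under NS102, 9 of 38 rose (23.7%, against 30.8% of all genes) and 12 fell (31.6%, against 39.7%), both below the shares of all genes. After length correction 14 rose and 10 fell. Ubtf, a polymerase I factor, rose from 2.86 ± 0.337 to 8.59 ± 1.7 FPKM, and Nhp2, of the box H/ACA particle, fell from 51.9 ± 1.11 to 27.6 ± 1.86. Under glutamate 7 of 34 rose (20.6%, against 16.9% of all genes) and 9 fell (26.5%, against 62.4%), with a median of -0.02. However, 27 rose and 4 fell after median centring, 26 and 5 after quantile normalization and 24 and 6 after length correction. Ubtf fell there from 5.15 ± 0.657 to 1.34 ± 0.141 FPKM, and was lower under all 3 rescalings run as well.

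Of 16 regulators of ribosomal protein synthesis, 6 rose (37.5%, against 30.8% of all genes) and 2 fell (12.5%, against 39.7%) under NS102. Larp1, the TOP-binding protein, went from 0.306 ± 0.0842 to 1.74 ± 0.359 FPKM, a low level in both groups. Eif4ebp1, an inhibitor of cap-dependent initiation, rose from 42.6 ± 1.09 to 84 ± 6.61 FPKM under glutamate, also after each rescaling. In sorted cells 3 of 18 regulators rose and 3 fell, 16.7% each way and near the shares of all genes (18.9% and 16.9%). Eif4ebp2 changed by -1.77 and Myc, a transcription factor that drives ribosome production, by -1.32, while Rptor rose by 1.36.

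Mitochondrial ribosomal proteins, which serve a separate ribosome, fell in 68 of 76 under NS102 (89.5%, against 39.7% of all genes) with a median of -0.42. None rose (30.8% of all genes). After length correction 42 fell and 13 rose, where 2981 of 8308 genes fell and 2901 rose. In sorted cells 6 of 76 fell (7.89%, against 16.9% of all genes) and 3 rose (3.95%, against 18.9%), with a median of 0.09. Under glutamate 47 fell (61.8%, against 62.4% of all genes) and 12 rose (15.8%, against 16.9%), near the shares of all genes. That direction turned to 17 lower and 43 higher after median centring. In skin after ablation 10 of 76 fell (13.2%, against 6.25% of all genes), and 2 fell and 1 rose after length correction. Respiratory chain and ATP synthase genes fell in 70 of 76 under NS102 (92.1%, against 39.7% of all genes, median -0.68), and 2 rose (2.63%, against 30.8%). In skin after ablation 32 of 78 fell (41%, against 6.25% of all genes, median -0.21) and 0 rose (7.38% of all genes). After length correction these became 49 lower and 8 higher under NS102 (median -0.22) and 14 lower in skin (median -0.12). In skin, 782 of 12507 genes were lower after that correction. After quantile normalization 16 were lower in skin. In sorted cells 11 of 75 fell (14.7%, near the 16.9% of all genes) and 2 rose (2.67%, against 18.9%), with a median of -0.20. After quantile normalization 11 fell and 26 rose.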

How the data were processed

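The deposited table is taken to hold FPKM values per gene, since it names no unit itself. For the authors' pipeline, the submitters' processing notes name STAR, Cufflinks and the mm9 build (versions not given in the sources used here). Strand use, multi-mapped reads and the library type of each sample are likewise not given in those sources. The members, gene lists and tests were chosen with earlier results of these data known. A gene entered a comparison when 4 or more of its 8 libraries reached 1 FPKM. Tests were run on log2(FPKM + 1) with limma 3.58.1 in R 4.3.3 (trend, two-sided, Benjamini-Hochberg over all genes tested, threshold 0.05). The fit was run on simulated data first. Departures from the other members came from the same fit after subtraction of each library's median member value. The interaction used 16 libraries, with a single spread per gene over skin and sorted cells. Replicate numbers were not used to pair the samples. Transcript lengths are those of the longest protein-coding transcript in GENCODE vM21, or of the longest of any kind where a gene has none. Older symbols were matched through RefSeq synonyms. The longest form need not be the one expressed here (5179 nt for Rps15a), so the length correction is approximate. Genes named in the text are a fixed set (stalk, ubiquitin-fusion, Mdm2-linked and paralogous members), up to 6 per direction with the largest change, up to 4 farthest from the members' median, and the extremes of level. Up to 4 genes by p were named per list. Alternatives were the pseudocount, the filter, median centring, quantile normalization, length correction, a shared spread, a replicate block and leaving out each library. A fit without sorted DTR replicates 3 and 4, and all alternatives for departures, were chosen after seeing the data. Results for some single genes are not reported here, though those genes enter the counts and medians.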

Additional observations from a re-analysis of the deposited data

Results flagged for a closer look

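In 12 of 238 sets of 4 libraries searched (the members' sum and the 25 preset members in each group), 1 library lay apart from the other 3 by more than Dixon's critical share of the range, about the 1 in 20 that chance flags. With glutamate, replicate 4 was highest for the members' sum (60415 against 57455 to 57784 FPKM), Fau (604), Rpl39 (1208) and Rpl36a (278). In Cre sorted cells, replicate 3 was lowest for Rpsa (63.8 against 104 to 107 FPKM) and Rps27a (96.1), and replicate 4 highest for Rpl22l1 (50.3 against 24.9 to 26.7). In Cre skin, Rplp2 was low in replicate 2 (1348 FPKM) and Rps27 high in replicate 1 (9.19). In PBS skin, Rpl11 was low in replicate 3 (1966 FPKM) and Rpl39l high in replicate 2 (4.82). Rps27l was low in replicate 1 of vehicle for 6 h (319 FPKM).

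The effect of ablation differed between sorted cells and skin in 75 members by the limma interaction. Rps23 (-2.58) and Rps19 (-2.37) were among the lowest values, and Rpl7l1 (0.56) and Rpl3l (0.78) the only positive ones that passed. The call for Rpl7l1 pools the spread of skin and sorted libraries, and its change in sorted cells alone did not pass. Rpl3l was at most 0.147 FPKM in all 8 sorted libraries, so its value restates its fall in skin and shows no difference between the tissues.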

How the results depend on the processing

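The cause of each shift below was not tested. In skin after ablation, the 8 members lower became 0 without a filter or with 1 spread estimated over all skin libraries, 3 after quantile normalization, 2 after length correction and 0 to 17 when 1 library was left out. The median of -0.12 became -0.013 (quantile) and -0.017 (length). Members apart from the others were 2, and 1 with a pseudocount of 0.1, 0 without a filter and 0 to 2 with 1 library left out. In sorted cells, members higher were 0, and 1 after median centring, 2 after quantile normalization or length correction, 0 to 1 with 1 library left out and 1 without DTR replicates 3 and 4, and the median was -1.21 after quantile normalization. Under glutamate, members higher were 39 and lower 13 after quantile normalization, lower were 0 after median centring or length correction, and the median was 0.64 (median centring), 0.085 (quantile) and 0.37 (length). Under NS102 the median was -0.76 (quantile) and -0.70 (length). Length correction left change related to length among the members, with a Spearman rho of -0.58 in skin after ablation, -0.29 in sorted cells, 0.73 under glutamate and -0.52 under NS102. Without it these were 0.007, 0.11, 0.01 and 0.09, so length-corrected values of the members are uncertain.

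The sign of some named members changed. In skin these were Rpl14 (-0.013 after median centring), Rps16 (0.11 quantile, 0.056 length) and Rpl30 (0.070 length), and, with 1 library left out, they spanned -0.033 to 0.048 (Rpl14), -0.052 to 0.022 (Rps16) and -0.13 to 0.096 (Rpl30). With β-alanine, Rpl39 spanned -0.010 to 0.16. In sorted cells Rps27l became 0.31 (quantile), 0.28 (length) and 0.14 (without DTR replicates 3 and 4), and spanned -0.32 to 0.047 with 1 library left out. Under glutamate, Rpl34 became 0.38 (median centring), 0.0040 (quantile) and 0.22 (length). Quantile normalization gave Rps26 -0.15, Rplp1 -0.042, Fau -0.0041, Rpl10 -0.15, Rpl39 -0.00490, Rpl7 -0.065 and Rpl41 -0.037, and with 1 library left out Rpl34 spanned -0.088 to 0.058, Rps26 -0.033 to 0.034 and Rpl21 -0.019 to 0.028. Under NS102, Rpl26 (-0.51) became 0.041 after length correction.

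The replicate numbers were not used to pair the samples. The correlations of same-numbered deviations were not all over 0.1 in any comparison, which cannot exclude pairing. With β-alanine, deviations of differently numbered libraries correlated up to 0.57, and the source of this was not tested. With the replicate number as a block, 1 member was lower in skin, 74 in sorted cells and 80 under NS102, and 72 were higher and 1 lower under glutamate. Depth is unknown, and FPKM divides by length, so shifts in fragment length or RNA quality between groups were not tested. The table keeps no reads, so reads shared with pseudogenes cannot be reassigned.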
